A study of Arabidopsis thaliana with 236 samples.

Results

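The comparison set pericycle cells against cortex cells of Arabidopsis thaliana (accession Col-0) roots 20, 24, 36 and 48 h after inoculation with Sinorhizobium meliloti, a soil bacterium that forms nodules on legumes and none on Arabidopsis. The arrays were taken by sample title, and of the 236 arrays of the series they were 24, of which 12 held pericycle RNA (3 at 20 h, 4 at 24 h, 2 at 36 h and 3 at 48 h) and 12 held cortex RNA (3 at each hour). Same-hour differences, pericycle minus cortex, were averaged with equal weight over the 4 hours. Both groups came from plants grown for 9 days on 0.1 mM KNO3 under 16 h light and 8 h dark and given a culture at an OD600 of 0.8, and both carried a green fluorescent protein reporter by which root protoplasts were sorted. Other sets were used beside them. Rhizobium arrays at 1, 2, 4 and 6 h were 15 of pericycle and 11 of cortex. Nitrogen arrays at 20 to 48 h came from uninoculated plates with 5 mM KNO3 (12 pericycle, 11 cortex). Standard arrays at 20 to 48 h came from uninoculated plates with 0.1 mM KNO3 (11 pericycle, 11 cortex). The labels do not name the reporter lines or the promoters that drive them, give an age of 12 days beside the 9 days of growth, and leave unsaid if each replicate had its own planting. The p-values thus cover array-to-array spread alone, some of which could be technical.

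The pericycle is the cell layer just inside the endodermis. It gives rise to lateral roots, and with the neighbouring vascular cells it moves nitrate, phosphate and metal ions towards the xylem. The cortex lies outside the endodermis, stores and passes on ions and water, and is one of the layers in which legumes make nodules. Roots notice bacteria through receptors for conserved bacterial molecules, which switch on defence compounds and ethylene.

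Values are log2 intensities, and differences are pericycle minus cortex on that scale. Array medians of the 24 arrays lay between 8.41 and 8.9, and 9 in 10 loci of an array lay between bounds of 4.67 to 5.09 at the low end and 13.43 to 13.6 at the high end, so values near 5 are at the dim end of the scale. A locus was called at an adjusted p below 0.05 in limma with Benjamini-Hochberg adjustment over 27143 loci.

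The pericycle arrays did not form 1 group. On the first principal component of the 24 arrays, which held 20.8% of the variance, replicates 2 and 3 of 20 h and replicates 2, 3 and 4 of 24 h had scores from 107.4 to 142.3. The other 7 pericycle arrays had scores from -2.51 to 37.21, and the 12 cortex arrays lay between -89.91 and -29.48. Within a group of the same hour, pericycle arrays correlated with each other at 0.786 to 0.935 and cortex arrays at 0.893 to 0.966. Of the 12 pericycle arrays, 7 correlated on average more with the cortex arrays of other hours than with the pericycle arrays of other hours, whereas all 12 cortex arrays were closer to cortex. Values are from all arrays, and beside them stands which calls were lost without those 5 pericycle arrays, a choice made after the arrays were seen, on a component that itself follows the difference between cell types.

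**Figure D1:**
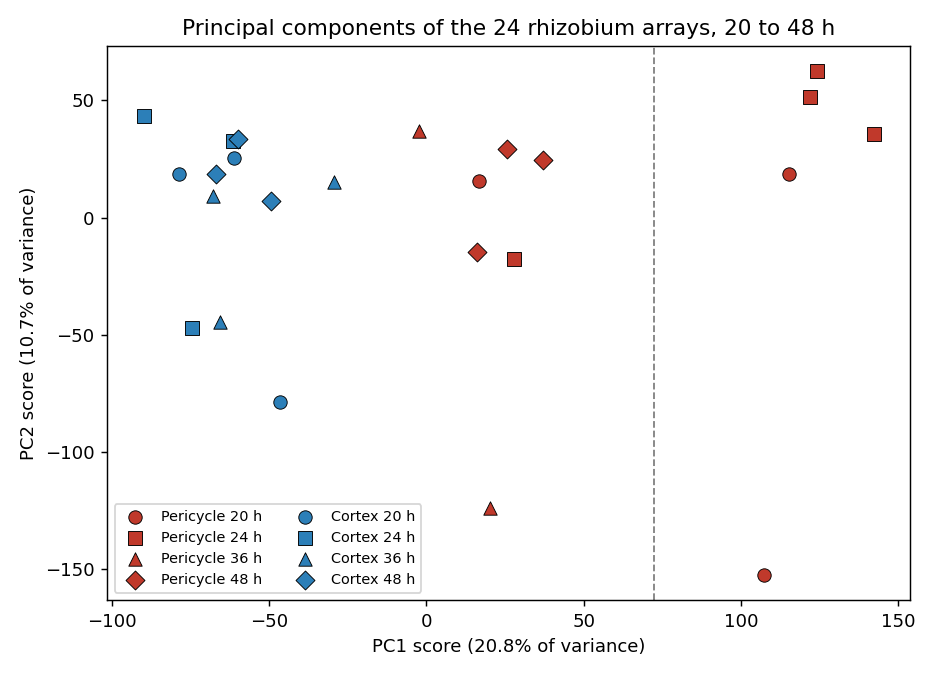
Scores of the 24 rhizobium arrays on their first and second principal components (axes with the percent of variance), coloured by cell type and shaped by hour, with a dashed line at the gap between pericycle arrays. The 5 pericycle arrays right of the line are from 20 and 24 h; the other 7 lie between them and the 12 cortex arrays.

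Of 27143 loci, 3696 were called, which is 13.6%. Higher levels in pericycle were called for 1643 loci (6.05%) and lower levels for 2053 (7.56%), and the median difference over all loci was 0.02. Among the calls, 3227 had the sign of their mean at all 4 hours and 2414 differed by at least 1 log2 unit. Without the 5 arrays that stand apart, 561 loci were called, 342 higher and 219 lower, of which 494 were also called with all arrays, and 3694 of the 3696 calls kept their sign. In bulk samples of this kind fewer cells of a type and less RNA per cell cannot be told apart.

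The largest difference was in LCR69, a small secreted protein of the cysteine-rich LCR family. It had 9.66 on the lowest, 12.87 on the median and 14.46 on the highest pericycle array, against 5.17, 6.12 and 8.7 on the cortex arrays. The cell types did not overlap, and the difference was 6.41 ± 0.66 (SE, adjusted p = 7.84e-14), or 6.06 without the 5 arrays.

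AAP2, an amino acid permease of the vascular tissue that moves amino acids from xylem to phloem, was close behind. It had 9.62, 13.34 and 11.94 on the pericycle arrays of 20 h, 11.26, 7.35, 8.03 and 10.54 on those of 24 h, 11.35 and 10.67 on those of 36 h, and 11.94, 13.43 and 11.59 on those of 48 h. On the 12 cortex arrays it lay between 4.51 and 5.18, at the dim end of the scale. Every pericycle array was thus above every cortex array, although replicates 2 and 3 of 24 h were the lowest pericycle arrays by more than 1 log2 unit. The difference was 6.23 ± 0.67 (SE, adjusted p = 9.23e-13), and it was 6.22 without the 5 arrays.

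NPC3, a phospholipase C of the non-specific type, had a difference of 4.62 ± 0.45 (SE, adjusted p = 2.95e-15) that lay between 4.14 and 4.89 at the 4 hours, and its pericycle arrays (9.77 to 12.48) did not overlap its cortex arrays (5.52 to 8.59). UCC1, a copper-binding uclacyanin of the cell surface, differed by 4.9, EXO70C1, an exocyst subunit, by 4.28, and DR4, named as drought-repressed, by 4.27. SHV2 (also COBL9), a cell surface protein needed for root hair growth, and RHD6, the transcription factor that starts root hairs, differed by 4.26 and 4.11. The other 7 of the 15 loci with the largest higher level in pericycle have no symbol in the annotation used here: AT1G14220, AT4G22214, AT3G14560, AT3G21770, AT1G05240, AT3G32980 and AT2G18150, with differences from 4.16 to 5.36.

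The differences in the other direction were smaller. AT3G02620, which has no symbol, differed by -4.12 ± 0.68 (SE, adjusted p = 3.92e-06), with 6.25, 7.27 and 10.72 on the lowest, median and highest pericycle array and 9.29, 12.48 and 13.83 on the cortex arrays; its neighbour by locus number, AT3G02610, differed by -3.11, and whether probes of these loci read each other was not tested. ZPR3, a small protein that binds leucine zipper transcription factors, had 4.83, 7.02 and 8.13 in pericycle and 8.03, 10.08 and 11.59 in cortex, a difference of -3.13 ± 0.58 (SE, adjusted p = 3.84e-05). CAD6, a cinnamyl alcohol dehydrogenase of the lignin family, differed by -2.92, CHL, a lipocalin of the chloroplast, by -2.87, and scpl16, a serine carboxypeptidase-like protein, by -3.09. LCR43 differed by -3.11, opposite in sign to LCR69. The other loci of this group were AT4G02465, AT1G71290, AT5G14290, AT4G12990, AT4G37235, AT4G01580, AT2G25770 and AT4G27435, from -3.65 to -2.93. All 30 loci kept their sign without the 5 arrays and 24 kept their call; those that lost it were AT3G32980, scpl16, LCR43, AT4G37235, AT4G12990 and AT1G71290.

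**Figure D2:**
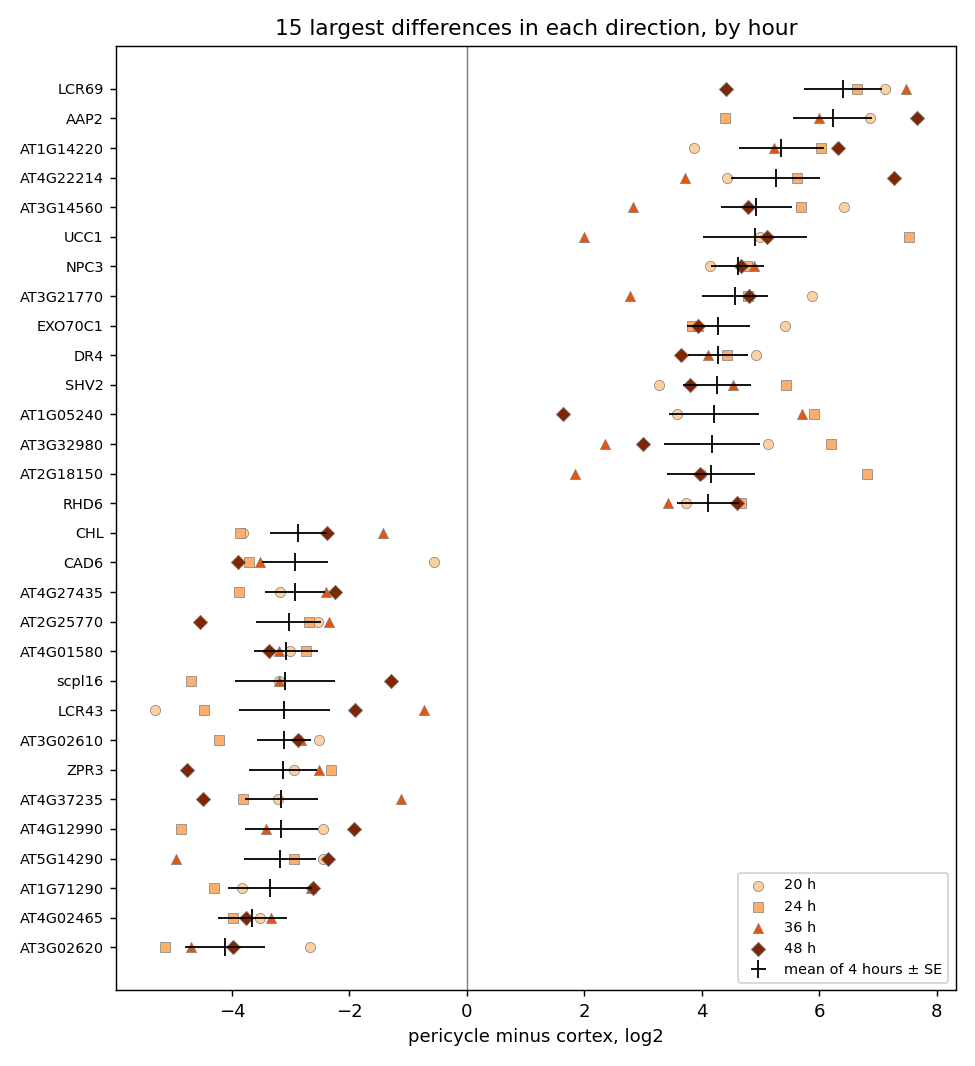
Pericycle minus cortex difference (log2, x axis) of the 15 loci with the largest difference in each direction, at 20, 24, 36 and 48 h (symbols) and as the mean of the hours with its SE (black). The order of hours differs from locus to locus; AAP2 was lowest at 24 h and LCR69 at 48 h.

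Only 105 loci (0.387%) had no overlap between the 12 pericycle and the 12 cortex arrays. In pericycle 37 lay above and 68 below, and 103 were called. Beside LCR69, AAP2 and NPC3, the loci with the largest differences and the members of gene lists without overlap were AT3G14560, AT4G01580, AT4G12990, SHV2 and HMA4.

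The markers of the sorted cell types were checked first among the gene lists. Over all loci 13.6% were called with all arrays, the share to set beside each list's count with all arrays. Of 12 pericycle and stele markers, 3 were higher and 1 was lower in pericycle, and the median was 0.31, against 0.02 over all loci. The mean level of the list lay between 8.42 and 9.44 on the pericycle arrays and between 8.16 and 8.87 on the cortex arrays, so the cell types overlapped. NRT1.5, the transporter that releases nitrate towards the xylem, had 8.07, 11.22 and 12.8 on the lowest, median and highest pericycle array and 5.96, 7.35 and 9.87 on the cortex arrays. Its difference was 3.32 ± 0.50 (SE, adjusted p = 3.15e-07), and 3.83 without the 5 arrays. PHO1, the phosphate exporter of the same cells, had 5.56, 8.1 and 10.55 in pericycle and 5.3, 5.71 and 6.71 in cortex, a difference of 2.4 ± 0.63 (SE, adjusted p = 0.00479) that was 2.43 without the 5 arrays (adjusted p = 0.0751). BHLH32 (also TMO5), a transcription factor of vascular founder cells, differed by 1.39, and WOL, a cytokinin receptor, by -0.67. These were 0.65 and -0.29 without the 5 arrays, and NRT1.5 alone of the list was called. The other 8 markers did not pass, among them SKOR, the potassium channel of the stele (0.82), SHR (0.52), GATA23 (0.24) and BOR1 (-0.73).

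Of 5 cortex markers, 3 were lower in pericycle and none was higher, with a median of -0.96. JKD, a zinc finger factor of the ground tissue, had 11.26, 11.76 and 12.63 in pericycle and 12.39, 12.9 and 13.3 in cortex, a difference of -0.96 ± 0.26 (SE, adjusted p = 0.00654). C/VIF2, an inhibitor of invertases, differed by -1.43 and AT1G09750 by -1.05, while AT1G62500 (0.62) and AT3G21670 (0.06) did not pass. None of the 3 was called without the 5 arrays, and the median of the list was then -0.57.

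Markers of the endodermis, the layer between the 2 sorted ones, moved with the comparison. Of 11 markers, 6 were higher and none was lower in pericycle, with a median of 2.35. CASP1, a membrane protein that lays out the Casparian strip, had 10.26, 12.56 and 12.82 on the pericycle arrays of 20 h, 12.54, 14.51, 14.75 and 14.74 at 24 h, 6.58 and 9.87 at 36 h, and 13.34, 7.03 and 12.73 at 48 h. Cortex arrays had 5.78, 6.95 and 11.16 as their lowest, median and highest value. The 24 h pericycle arrays were high, and replicate 1 of 20 h, both arrays of 36 h and replicate 2 of 48 h lay within the cortex range. Its difference was 4.03 ± 0.86 (SE, adjusted p = 0.000493), with 5.63 at 24 h and 1.79 at 36 h.

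ESB1, which organises the strip, differed by 3.75, MYB36, the transcription factor that switches on strip genes, by 2.68, CASP2 by 2.64 and PER64, a peroxidase of the strip, by 2.35. CASP4 (1.2), CASP5 (0.63), SCL3 (-0.22), GSO1 (-0.69) and SCR (-1.2) did not pass. The mean level of the 11 genes lay between 6.95 and 11.55 on the pericycle arrays and between 6.92 and 8.15 on the cortex arrays. On the pericycle arrays that do not stand apart it was 7.65 at 20 h, 9.45 at 24 h, 6.95 and 8.36 at 36 h, and 10.33, 7.4 and 10.11 at 48 h. On the arrays that stand apart it was 9.81 and 9.98 at 20 h and 11.55, 10.75 and 10.88 at 24 h. Without those arrays the median was 0.87 and none of the 11 was called. On the same 5 arrays the mean of the pericycle and stele list was 8.54, 9.1, 8.42, 8.6 and 8.79. The part of endodermal RNA in the other results was not tested.

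Epidermis and root hair markers were also higher in pericycle, 5 of 11 with none lower and a median of 1.18. RHD6 had 8.69, 11.41 and 12.25 in pericycle and 5.78, 6.47 and 9.77 in cortex, with a difference of 4.11 ± 0.53 (SE, adjusted p = 1.31e-09). RSL4, which sets root hair length, differed by 3.04, LRX1, an extensin of the root hair wall, by 2.69, and RSL2 by 0.93. MYB66, the factor of cells that make no hair, was at -1.02 and did not pass, nor did GL2 (0.75), EXPA7 (1.26) or PRP3 (1.18). SHV2, RHD6, RSL4 and LRX1 stayed called without the 5 arrays, where the median was 0.5 and RSL2 was lost. The sample titles name pericycle, but 1 sentence of the series' description speaks of epidermal cells. Beyond these markers, which cells the arrays held was not tested. The list mean lay between 7.77 and 10.3 on the pericycle arrays and between 6.96 and 8.02 on the cortex arrays.

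Other cell types showed less. Of 9 phloem markers 2 were higher: PP2-A1, a phloem lectin, with 3.14 and SUC2, the sucrose loader of companion cells, with 1.23. PP2-A1 had a difference of -0.22 at 24 h and of 3.03 to 5.57 at the other hours. Neither was called without the 5 arrays, with 2.54 and 1.18. Of 11 xylem markers 2 were lower, IRX6 with -1.81 and the cellulose synthase CESA4 with -1.58. IRX6 stayed called without the 5 arrays (-2.04), CESA4 did not (-0.74), and the list median was 0.05 in place of -0.38. Of 5 root cap, 10 green tissue and 13 suberin synthesis genes none passed, with medians of 0.45, 0.63 and 0.42.

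**Figure D3:**
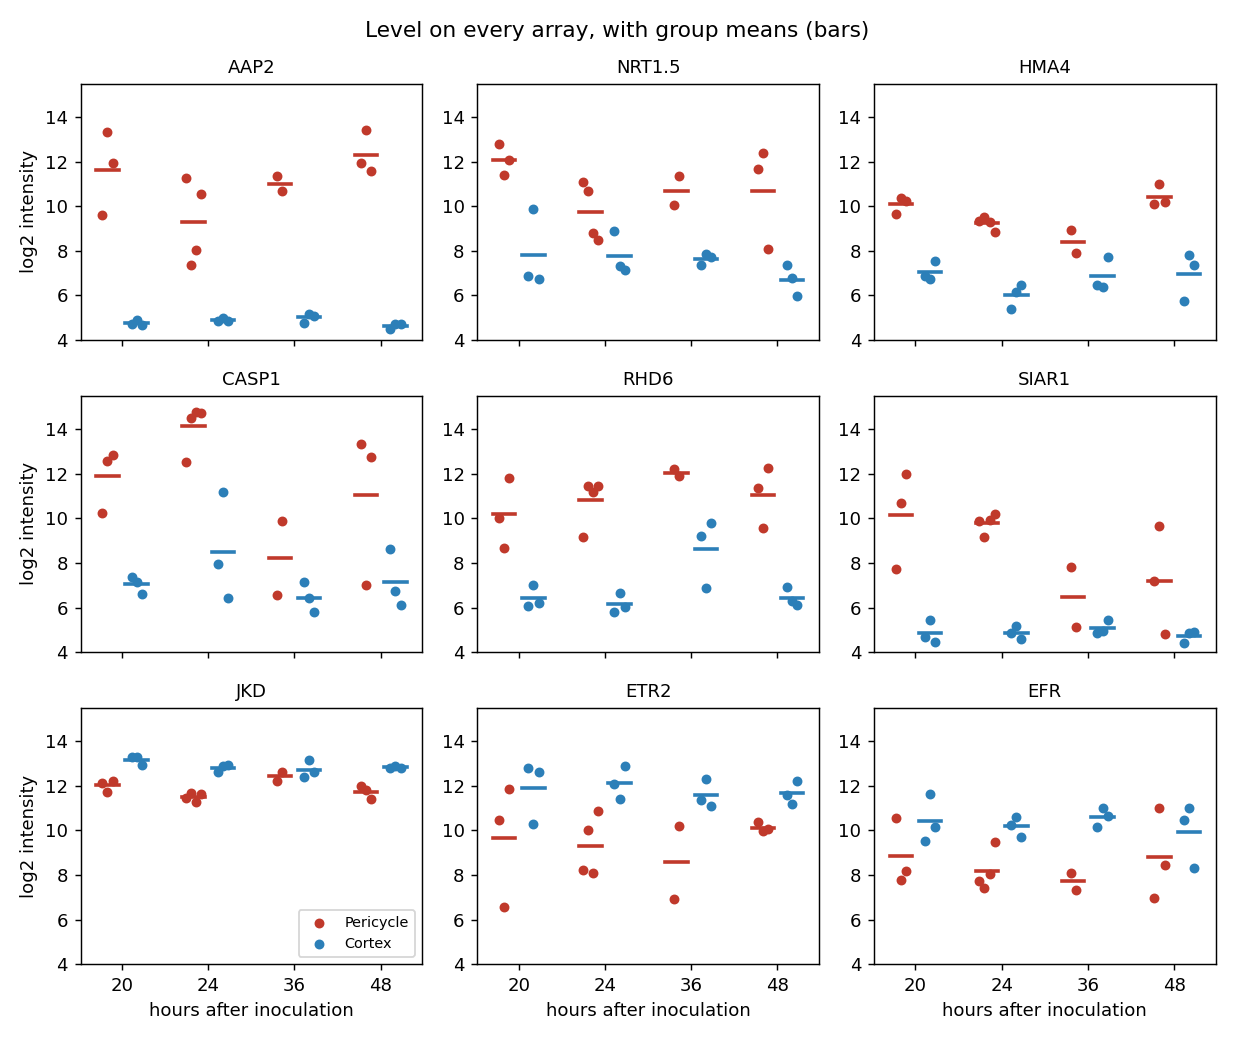
Log2 intensity of 9 genes on every array (points) with the mean of each group (bars), pericycle left of cortex at 20, 24, 36 and 48 h after inoculation. AAP2 and HMA4 separate the cell types at every hour, CASP1 is highest on the 24 h pericycle arrays, and JKD, ETR2 and EFR are lower in pericycle by their group means at every hour.

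Of 22 nitrogen transport genes, 5 were higher and 1 was lower in pericycle, with a median of 0.32. Beside AAP2 and NRT1.5, SIAR1, an amino acid transporter of vascular cells, had 4.79, 9.41 and 11.98 on the pericycle arrays and 4.43, 4.86 and 5.43 on the cortex arrays, a difference of 3.52 ± 0.60 (SE, adjusted p = 6.64e-06) and 2.94 without the 5 arrays. It was between 9.18 and 10.2 on all 4 pericycle arrays of 24 h, and on replicate 2 of 36 h and replicate 3 of 48 h it was within the range of the cortex arrays. WR3 (also NRT3.1), the partner protein that high-affinity nitrate transporters need, differed by 1.97, and AAP6, another amino acid permease, by 1.73. CLC-A, which pumps nitrate into the vacuole, differed by -1.06. WR3, AAP6 and CLC-A were not called without the 5 arrays, with 1.82, 1.95 and -1.27, and AAP2, NRT1.5 and SIAR1 were. The uptake transporters NRT2:1 (0.95), NRT2.4 (1.35), NRT1.1 (0.81), AMT1;1 (0.02) and AMT1;3 (-0.07) did not pass.

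In nitrogen assimilation, 2 of 14 genes were higher and none was lower, a share near the 13.6% of all loci. GDH3, a glutamate dehydrogenase, differed by 1.36 and GSR2, a cytosolic glutamine synthetase, by 1.26. GDH3 without the 5 arrays was 2.16 and called, and GSR2 was 0.92 and not called. The nitrate reductases NIA1 (0.05) and NIA2 (0), the nitrite reductase NIR1 (0.05) and the asparagine synthetase ASN1 (0.35) did not pass.

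Of 15 genes of ion loading and vascular ion transport, 3 were higher. HMA4, a pump that loads zinc into the xylem, had 7.9, 9.59 and 10.99 in pericycle and 5.4, 6.62 and 7.8 in cortex. The cell types did not overlap, and the difference was 2.83 ± 0.60 (SE, adjusted p = 0.000464) and 2.74 without the 5 arrays. PHO1 is in this list too, and SLAH2, a nitrate channel, differed by 0.98, but by 0.35 without the 5 arrays (adjusted p = 0.767). PHO2, the enzyme that marks phosphate transporters for breakdown, was the only one of 10 phosphate starvation genes to pass, with 1.66 ± 0.41 (SE, adjusted p = 0.00303), and it stayed called without the 5 arrays (1.82). None of 16 iron deficiency genes passed at the adjusted p, and their median was 0.05.

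Aquaporins, the water channels, were lower where they passed: 5 of 21, with a median of -0.34. All 5 were of the plasma membrane, PIP2;4 (-1.37), PIP1A (-0.89), PIP1;4 (-0.58), PIP3 (-0.36) and PIP1B (-0.28), and at 36 h their differences lay between -0.38 and 0.03. These channels are close paralogues, so their probes may read each other, which was not tested. None was called without the 5 arrays.

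Ethylene genes differed in both directions, 4 higher and 3 lower of 15, and 1 higher and 1 lower without the 5 arrays. ACS8, ACS2 and ACS6, which make the precursor, differed by 2.06, 1.2 and 0.7. They were 1.85, 0.65 and 0.64 without the 5 arrays, none called.

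The ethylene receptor ETR2 was lower in pericycle, with 6.58, 10.04 and 11.86 against 10.29, 11.83 and 12.89 in cortex, a difference of -2.41 ± 0.50 (SE, adjusted p = 0.000298) and -2.46 without the 5 arrays. ERS1, another receptor, differed by -0.64, and by -0.55 without the 5 arrays, no longer called. The response genes EBF1 (-0.43), EBF2 (-0.25) and ERF1 (0.26) did not pass.

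Of 14 genes for receptors of bacterial patterns, 2 were called, both lower in pericycle, a share near the 13.6% of all loci, and the list median was 0.04. EFR, the receptor of bacterial elongation factor Tu, had 6.96, 8.05 and 10.99 in pericycle and 8.32, 10.36 and 11.64 in cortex, a difference of -1.91 ± 0.62 (SE, adjusted p = 0.0247). LYM1, which binds bacterial peptidoglycan, differed by -1.42. Neither was called without the 5 arrays, with -1.59 and -0.96. CERK1 (0.25), the flagellin receptor gene FLS2 (AT5G46330, -0.18), BAK1 (-0.08) and LYK5 (0.44) did not pass.

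In the immune response list, 2 of 21 genes were higher, a share below the 13.6% of all loci. CYP81F2, which modifies indole glucosinolates, differed by 1.67 and PAD3, which makes the last step of camalexin, by 1.3. Neither was called without the 5 arrays, with 1.09 and 1.43. FRK1 (-0.3), PR1 (0.48), WRKY33 (0.09) and MYB51 (0.3) did not pass. Among 6 homologues of legume symbiosis genes, HB1, a haemoglobin that binds nitric oxide, was higher (1.98 ± 0.58, SE, adjusted p = 0.0135) and the related HB2 lower (-0.68 ± 0.14, SE, adjusted p = 0.000324). Without the 5 arrays HB1 was 0.71 and HB2 -0.54, neither called.

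Phenylpropanoid and lignin enzymes were higher where they passed, 5 of 13 with a median of 0.37. PAL2, an enzyme of the first step, had 12.02, 13.01 and 13.64 in pericycle and 10.31, 11.79 and 12.53 in cortex, a difference of 1.35 ± 0.33 (SE, adjusted p = 0.00224) and 1.41 without the 5 arrays. PAL1 differed by 1.2, 4CL1 by 0.72, CCR1 (AT1G15950) by 0.6 and OMT1 by 0.5. PAL2 alone was called without the 5 arrays, and the other 4 had 1.19, 0.91, 0.66 and 0.52 in the same order. Of 10 flavonoid and coumarin genes, TT7, a flavonoid hydroxylase, was higher (2.3) and MYB72, a regulator of coumarin release, lower (-1). Of 20 glucosinolate and myrosinase genes, CYP79B2, which starts indole glucosinolates and camalexin from tryptophan, had 7.59, 8.69 and 11.63 in pericycle and 5.08, 5.67 and 7.66 in cortex, a difference of 2.96 ± 0.59 (SE, adjusted p = 0.000157). SOT16, a sulfotransferase of the same route, was lower (-0.8), and the share of this list called was below the 13.6% of all loci. None of TT7 (2.22), MYB72 (-0.67), CYP79B2 (2.35) and SOT16 (-0.59) was called without the 5 arrays.

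Auxin genes changed in a few members. DFL1, which conjugates auxin to amino acids, had 11.06, 12.11 and 12.71 in pericycle and 9.19, 10.03 and 11.2 in cortex, a difference of 1.91 ± 0.38 (SE, adjusted p = 0.000125) and 1.79 without the 5 arrays. GH3.1 differed by 1.7, of which 4.1 at 24 h, and ACS4, an auxin-induced gene, by 0.9; no other of the 14 response genes passed. In limma without the 5 arrays GH3.1 was 0.56 (adjusted p = 0.741) and ACS4 0.8 (adjusted p = 0.161). Among 11 auxin transport genes 1 was higher and 3 were lower, the carriers AUX1 (-0.72), EIR1 (-0.55) and ABCB1 (-0.53). None of the 11 was called without the 5 arrays.

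Lateral root initiation had 1 higher (AT5G66815, 1.09) and 1 lower (ARF19, -0.58) of 19 genes, a share below the 13.6% of all loci. LBD16 (1.03), LBD29 (0.13), PUCHI (0.26) and GATA23 did not pass. In the cell cycle list KRP2, an inhibitor of cyclin-dependent kinases, was lower (-1.39) and the other 15 genes did not pass, with a list median of -0.61; CYCB1;1 was at 0.05 and CYCD3;1 at -1.45. AT5G66815 was 1.3, ARF19 -0.33 and KRP2 -1 without the 5 arrays, none called.

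Of 21 cytokinin genes, ARR7, a response regulator, was higher (1.49), and the receptors HK2 (-1.34) and WOL (-0.67) and the regulator RR3 (-0.89) were lower. No cytokinin gene was called without the 5 arrays, where ARR7 was 1.42, HK2 -0.42, WOL -0.29 and RR3 -0.6. Of 24 jasmonate genes, AOC3 (0.47), JAR1 (0.47) and OPR3 (0.37), enzymes of synthesis, were higher, and AOC4 (-1.52), a relative of AOC3, and MYC2 (-0.48), the main transcription factor of the response, were lower. No jasmonate gene was called without the 5 arrays. Of 12 clock genes, EPR1 (AT1G18330, -1.77) and PCL1 (-0.49) were lower, but with -1.11 and -0.29 neither was called without the 5 arrays. None of 11 heat shock genes passed, and their median was -0.02.

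**Figure D4:**
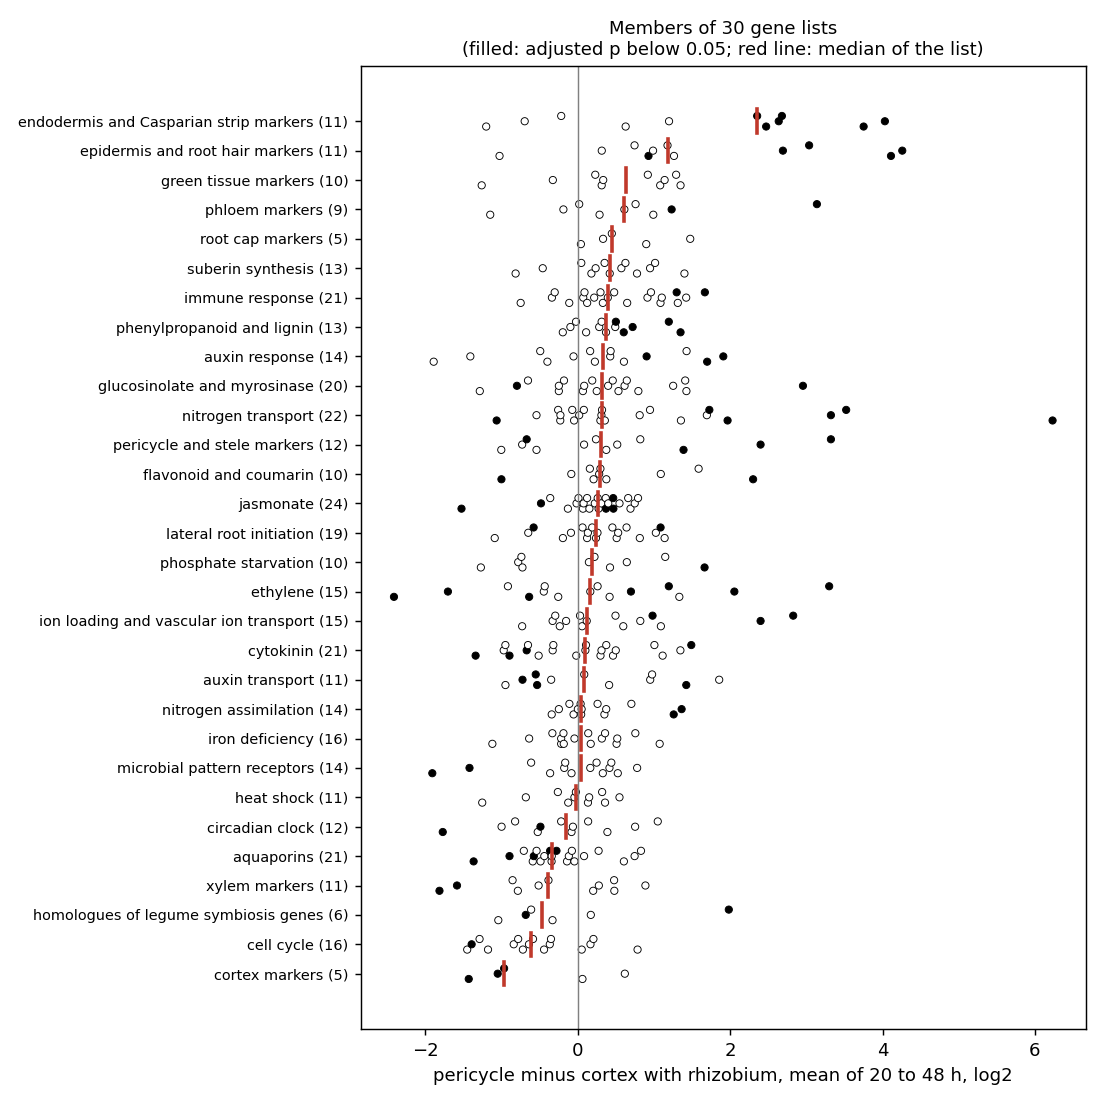
Pericycle minus cortex difference with rhizobium (log2, mean of 20 to 48 h) of each member of 30 gene lists, ordered by the list's median (red line), with the number of genes in brackets and filled points for members called at an adjusted p below 0.05. Endodermis and root hair markers have the highest medians, 2.35 and 1.18, and cortex markers the lowest, -0.96.

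Taken by hour, 606 loci (2.23%) were called at 20 h, 1684 (6.2%) at 24 h, 19 (0.07%) at 36 h and 35 (0.129%) at 48 h. The groups differ in size, with 2 pericycle arrays at 36 h and 4 at 24 h, and the median SE of a difference was 0.67 at 20 h, 0.63 at 24 h, 0.75 at 36 h and 0.67 at 48 h. Without the arrays that stand apart, 21 and 88 loci were called at 20 and 24 h, where 1 pericycle array was left at each, so that its spread is assumed to be that of other groups.

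A moderated F test of whether the differences were equal at the 4 hours called 6 loci (0.0221%), and 1595 had an unadjusted p below 0.05. For 4 of the 6, the hour that stood out was 36 h. NET2B, an actin-binding protein, had a difference of 4.19 there and between -1.56 and -0.08 at the other hours. AT5G03837 and AT1G28710 were also higher in pericycle at 36 h (2.59 and 3.69), and AT3G22290 was lower (-2.28). Pericycle had 2 arrays at 36 h, with scores of -123.8 (replicate 1) and 36.9 (replicate 2) on the second principal component. No locus passed the F test with only the arrays of the comparison, or with each array centred on its median. AT3G45243 differed by 1.65 at 48 h alone. STO, a B-box protein whose level follows the light, differed by 2.78 at 20 h and by -1.12 at 24 h; its mean at 20 h was 10.72 in pericycle and 7.95 in cortex, and from 12.59 to 13.76 in both at the other hours. The F of AT3G45243 was 12.07 (adjusted p = 0.00809) and that of STO 9.54 (adjusted p = 0.0357), which was 2.72 without the 5 arrays and no longer called.

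Whether the cell types differed otherwise late than early after inoculation was tested as the mean difference at 20 to 48 h minus that at 1 to 6 h. Only rhizobium arrays enter it, and the early and late hours fall at different times of day. Time since inoculation and time of day thus cannot be told apart. The test called 6 loci (0.0221%), 1 higher and 5 lower, while 3760 had an unadjusted p below 0.05. Taken alone, the difference at 1 to 6 h called 11016 of 27143 loci, against 3696 at 20 to 48 h. Its median absolute size was 0.585 early and 0.393 late, with median SEs of 0.332 and 0.342. The change between the spans had a median SE of 0.477, and its few calls do not show that the spans were alike. SUC1, a sucrose carrier, averaged 12.85 in pericycle and 13.15 in cortex late, against 13.82 in pericycle and 12.61 in cortex early, and its change was -1.52 ± 0.32 (SE, adjusted p = 0.0221). GASA1, a gibberellin-regulated peptide, had late means of 15 in pericycle and 14.8 in cortex, against 14.56 and 13.08 early in the same order, a change of -1.29. WRKY42, a regulator of phosphate transport, changed by -3.15, ATCSLB05, a cellulose synthase-like protein, by -3.19 and AT3G29430 by -2.35. AT2G28310 changed by 1.56, but was not called with each array centred on its median or with quantile normalization. With only the arrays of the comparison, AT2G28310, WRKY42, AT3G29430 and GASA1 were not called. With each array centred on its median 14 loci were called, all lower, and the median over all loci was -0.23 in place of -0.06. ATCSLB05 averaged 6.85 in pericycle and 8.96 in cortex late, against 6.83 in pericycle and 5.75 in cortex early. WRKY42 averaged 8.83 in pericycle and 10.29 in cortex late, against 9.13 in pericycle and 7.44 in cortex early, so in both genes the cortex mean differed more between the spans than the pericycle mean.

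No gene of the 30 lists was called in this test. Early differences of the genes above were 5.09 for AAP2, 3.69 for NRT1.5, 2.87 for HMA4, 5.53 for CASP1, 3.97 for RHD6 and -0.13 for ETR2. ETR2 had -2.41 late, and the difference between late and early did not pass (adjusted p = 0.14).

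Against the nitrogen arrays of the same hours, the cell type difference changed at 18 loci (0.0663%), 10 higher and 8 lower with rhizobium. These sets differ in both inoculum and nitrate, and the parts of the 2 cannot be told apart. FIB1, a nucleolar methyltransferase of ribosome synthesis, averaged 12.71 in pericycle and 9.8 in cortex with rhizobium, against 12.53 in pericycle and 12.75 in cortex with nitrogen. Its change was 3.14 ± 0.54 (SE, adjusted p = 0.000345), and on the rhizobium arrays it had 11.72 to 13.88 in pericycle and 7.42 to 12.02 in cortex. TIM13, a protein of mitochondrial import, had the same order, with 12.12 and 8.75 in pericycle and cortex with rhizobium and 12.06 and 11.97 with nitrogen, a change of 3.28 (adjusted p = 0.0421). ETT, an auxin response factor, changed by 2.41 and the cortex marker AT1G62500 by 2.08. AT2G07673 (4.29) and AT5G36980 (2.83) also changed in this direction. With only the arrays of the comparison, AT5G36980 alone of these loci stayed called. TIM13 also lost its call with array weights and with each replicate number left out in turn.

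CEP2, a cysteine endopeptidase, changed by -2.81 ± 0.44 (SE, adjusted p = 5.79e-05), with 13.71 in pericycle and 12.39 in cortex on rhizobium arrays, against 12.84 and 8.71 on nitrogen arrays. HB53, a homeodomain factor, changed by -4.46, SWEET1, a sugar transporter, by -3.63, and AT1G05925 by -2.77. LHT1, a transporter that takes up amino acids, was the only nitrogen transport gene called (-1.94), with 13.38 in pericycle and 13.61 in cortex with rhizobium, against 11.59 and 9.87 with nitrogen. The phosphate transporters PHT1;2 (-3.45) and PHT1;1 (-3.01) are close copies whose probes may read each other. Both had lower differences with rhizobium (-1.65 and -0.72) than with nitrogen (1.8 and 2.29). With only the arrays of the comparison PHT1;1 and AT1G05925 were not called, and CEP2 was not called without replicate 1. Without the 5 arrays 1 locus was called, CEP2, and the change of FIB1 was 2.78 (adjusted p = 0.0596).

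Against the standard arrays, 1069 loci changed (3.94%), 560 higher (2.06%) and 509 lower (1.88%) with rhizobium. The cortex standard arrays carry high heat shock values. The mean of the 11 heat shock genes was 9.64 ± 0.68 in pericycle and 9.74 ± 0.68 in cortex with rhizobium (SD, n = 12 each), and 10.31 ± 0.76 in pericycle and 14.24 ± 0.16 in cortex on standard arrays (SD, n = 11 each). On the same scale 47 loci differed between rhizobium and standard pericycle and 3842 between rhizobium and standard cortex. How much of the 1069 calls goes with that state of the standard cortex was not tested.

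The largest changes were at AT1G52560 (7.2), AT4G21323 (6.98), ATHSP22.0, a small heat shock protein (6.9), AT1G71000 (6.71), AT1G72490 (6.56) and AT4G29905 (6.21), and 7 of 11 heat shock genes were higher and none lower. ATHSP22.0 averaged 5.27 in pericycle and 5.39 in cortex with rhizobium, against 6.27 and 13.3 on standard arrays. In the other direction SWEET17, a fructose transporter of the vacuole, changed by -4.73 ± 0.99 (SE, adjusted p = 0.000709) and JRG21, named as jasmonate-regulated, by -4.36; AT4G15990 (-5.47), AT3G04854 (-5.19), AT1G20070 (-4.46) and AT3G15550 (-4.33) had no symbol. Without the 5 arrays 383 loci were called, and SWEET17 and AT3G04854 were not among them. JRG21 averaged 11.19 in pericycle and 10.58 in cortex with rhizobium, against 12.17 and 7.2 on standard arrays.

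Among the lists, 3 of 24 jasmonate genes were lower in this test and none was higher, and the list mean was 11.92 ± 0.20 in pericycle and 11.74 ± 0.26 in cortex with rhizobium, against 11.86 ± 0.25 and 11.16 ± 0.16 on standard arrays (SD, n = 12 and 11 arrays of each cell type). Of 21 aquaporins 6 were lower, of 14 auxin response genes 4 were lower, and of 15 ethylene genes 2 were higher. No endodermis, root hair or nitrogen assimilation gene was called.

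**Figure D5:**
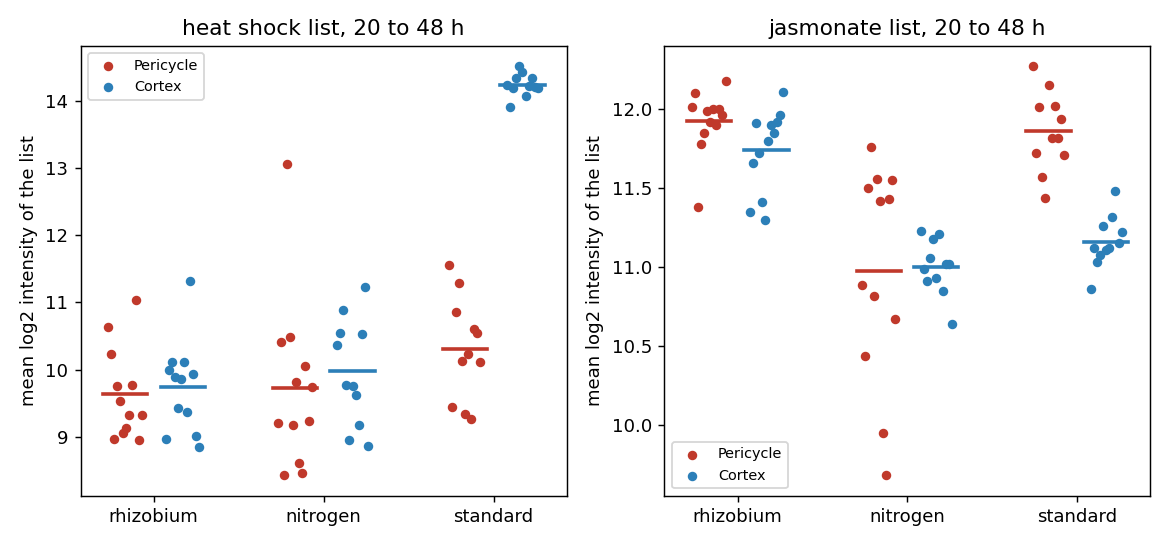
Mean log2 intensity of the heat shock list (left) and the jasmonate list (right) on every array of 20 to 48 h by treatment, pericycle left of cortex, with group means (bars). The standard cortex arrays lie between 13.91 and 14.51 for heat shock, above every other array shown, and the rhizobium arrays of both cell types lie between 8.85 and 11.32.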

How the data were processed

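RNA of sorted root cells was measured on 1-colour NimbleGen arrays. The authors deposited log2 intensities, summarised by RMA per the submitters' processing notes; for its software and version, the sources used here give nothing. The 31524 rows were averaged to 27143 loci, of which 26555 matched RefSeq TAIR10.1 and 10363 had a symbol; no genome sequence was used here. One pair of arrays (pericycle, standard, 16 h) correlated at 0.999, against at most 0.974 elsewhere, and was counted as 1 sample, leaving 235. With limma 3.58.1 (R 4.3.3), a group-means model over 80 groups was fitted (residual df 155, prior df 3.04), with Benjamini-Hochberg adjustment over all loci and no replicate block. The 3 tests against early, nitrogen and standard arrays share the late rhizobium arrays. Array number limits the precision. The members and lists were chosen with earlier results of these data known. Named were the 15 loci with the largest called difference in each direction, among those with the sign of their mean at all 4 hours. Also named were 6 in each direction per further test, the 6 loci of the F test, and members of 30 lists. Results of a few list members are not reported here, though the lists' counts and medians include them.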

Additional observations from a re-analysis of the deposited data

Results flagged for a closer look

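In the 4 pericycle arrays of 24 h, 14 of 60 values tested had 1 array far from the other 3, with a critical gap over range of 0.829. A single value passes it by chance about 1 time in 20. These values are loci and list means read on the same 4 arrays and are not independent, so that rate gives no expected count. Replicate 1 was lowest for UCC1 (0.844), SHV2 (0.885), AT1G05240 (0.922), AT3G32980 (0.916), AT2G18150 (0.895) and RHD6 (0.88), and highest for AT1G71290 (0.841) and AT4G12990 (0.829). It was also lowest for the nitrogen assimilation mean (0.847) and highest for the phenylpropanoid mean (0.929). Replicate 4 was highest for AT5G14290 (0.851) and lowest for the root cap (0.836) and flavonoid (0.93) means, and replicate 2 was lowest for AT4G27435 (0.842). Replicate 1 is the 24 h pericycle array that does not stand apart on the first principal component.

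The cell type difference changed between late and early hours at 6 loci: AT2G28310 (1.56), ATCSLB05 (-3.19), WRKY42 (-3.15), AT3G29430 (-2.35), SUC1 (-1.52) and GASA1 (-1.29). It changed between rhizobium and nitrogen at 18 loci, among them AT2G07673 (4.29), TIM13 (3.28), FIB1 (3.14), AT5G36980 (2.83), ETT (2.41), AT1G62500 (2.08), HB53 (-4.46), SWEET1 (-3.63), PHT1;2 (-3.45), PHT1;1 (-3.01), CEP2 (-2.81) and AT1G05925 (-2.77). Between rhizobium and standard it changed at 1069 loci, with the largest values at AT1G52560 (7.2), AT4G21323 (6.98), ATHSP22.0 (6.9), AT1G71000 (6.71), AT1G72490 (6.56), AT4G29905 (6.21), AT4G15990 (-5.47), AT3G04854 (-5.19), SWEET17 (-4.73), AT1G20070 (-4.46), JRG21 (-4.36) and AT3G15550 (-4.33). Between hours, 6 loci passed the F test, with F of 12.1 for AT3G45243, 11.7 for AT5G03837, 10.6 for AT3G22290, 9.99 for NET2B, 9.6 for AT1G28710 and 9.54 for STO.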

How the results depend on the processing

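The 106 named loci called in the comparison of 20 to 48 h kept their sign in each alternative that held them; 36 stayed called without the 5 pericycle arrays and 95 with only the arrays of the comparison. The 3696 calls became 1303 without 20 h, 917 without 24 h, 2414 with a log2 difference of at least 1, 561 without the 5 arrays, and 999 to 3568 when replicates of 1 number were left out. Deviations from the group means correlated at -0.12 to 0.185 between same-numbered arrays of the 2 cell types. Their mean was 0.000375, against 0.000696 for different numbers. In groups this small such deviations balance out, so these values cannot tell whether the numbers pair the samples. With a replicate block there were 1604 calls. Leaving out a replicate number gave 37 to 871 calls at 20 h, 29 to 2033 at 24 h, 1 to 373 at 36 h, 6 to 38 at 48 h, 1 to 53 in the F test, 0 to 13 late minus early, 3 to 18 against nitrogen and 262 to 1018 against standard. Array weights gave 239, 7874, 9 and 430 calls at 20, 24, 36 and 48 h, 177 in the F test, 266 late minus early, 50 against nitrogen and 2709 against standard. With only the arrays of the comparison there were 10 calls at 36 h, 55 at 48 h, 0 in the F test of limma (1854 at an unadjusted p below 0.05), 15 late minus early, 8 against nitrogen and 2386 against standard. Median centring gave 0 in the F test (1430 unadjusted) and 14 late minus early, all lower, against 16.7% higher without it; quantile normalization gave 30 at 36 h and 12 in the F test, and leaving out dim loci 1 in the F test. Without the 5 arrays there were 21 calls at 20 h, 88 at 24 h, 50 in the F test, 76 late minus early, 1 against nitrogen and 383 against standard. Of the 106 named loci, 47 stayed called without 24 h, 52 without replicate 3, 60 without 20 h and 62 with a replicate block. The cause of these shifts was not tested. No named call reversed its sign, but 2 of the 3696 calls did without the 5 arrays, and the medians of 9 of the 30 lists changed sign in at least 1 alternative: xylem, auxin transport, ion loading, pattern receptors, cytokinin, ethylene, iron, phosphate and heat shock.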

Other observations

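Gene families were taken by symbol, chosen after their values were seen and not tested as groups. Over all loci 13.6% were called, a share which SWEET, ABCG and scpl genes are near and LCR, LBD and SAUR genes are below. UMAMIT transporters, which include carriers of amino acids, had 8 members higher and 3 lower in pericycle of 43, and SWEET sugar transporters had 2 lower and none higher of 15, SWEET17 with -2.07 and SWEET1 with -2.06. Of 80 LCR cysteine-rich proteins 5 were higher and 1 was lower; LCR68 differed by 3.99, with no overlap between pericycle (7.48 to 11.35) and cortex (5.06 to 7.09) arrays. Expansins, which loosen cell walls, had 4 higher and 2 lower of 25, with EXPA4 at 2.75, and XTH wall enzymes had 3 higher and 5 lower of 30. EXO70 exocyst subunits had 2 higher and 4 lower of 23, and ABCG transporters 4 higher and 2 lower of 42, with ABCG29 at 3.9. LBD genes had 2 higher and none lower of 35, scpl genes 3 higher and 2 lower of 35, and SAUR genes 1 lower and none higher of 16.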
